A study of Homo sapiens with 3 samples.

Results

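The genes described here are 42 listed members of the NF-kB pathway, made up of 31 pathway components and 11 inducible target genes. They were chosen by name and role, with earlier results of these data known. They were read on probe sets whose only gene symbol in the platform annotation is that member. A member with several such probe sets was given the one with the highest mean over the 3 arrays. In all, 39 members were measured (28 components and 11 targets) among 22395 measured genes. BIRC3, RIPK1 and RNF31 had no probe set of their own by that rule and were not analysed here.

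The cells were HEK293T, an established line from human embryonic kidney with the SV40 T antigen (1 characteristic of the labels spells it HEK239T). Per the labels' protocols, dividing cells received a lentivirus with pCDF1-TRAF7 G536S mutant, pCDF1-TRAF7 wildtype or the empty pCDF1 vector, and all 3 groups were kept stable with puromycin. Nothing in the labels says how many clones or cultures stand behind a group, and no age applies to a cell line. RNA, 300 ng of total RNA per array, was hybridised to Affymetrix oligonucleotide arrays, with 1 array for each group. No group has a replicate, so no difference below has a test, a standard error or a p-value, and culture, extraction and array cannot be told apart from the construct. In a bulk sample, fewer cells expressing a gene and less RNA per cell cannot be told apart either.

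NF-kB is a family of dimeric transcription factors held in the cytoplasm by IkB proteins. A signal from a receptor, such as that for TNF, builds ubiquitin chains on adaptors; these chains recruit the TAK1 and IKK kinases, IKK marks IkB for destruction, and the freed dimers enter the nucleus. There they induce chemokine, adhesion and cytokine genes, and also several of the pathway's own parts, among them the inhibitors that end the signal. TRAF7 is a RING finger ubiquitin ligase with WD40 repeats, and earlier work tied it to MEKK3 and to NF-kB signalling.

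TRAF7 was read as the check of the labels. Its level was 7.35 on the G536S array, 8.11 on the wild-type array and 5.66 on the empty vector array (log2 RMA intensity). Both construct arrays were thus above the vector array. For TRAF7 itself G536S minus wild type was -0.76, so the mutation and the TRAF7 level cannot be told apart between the constructs. Of 9 measured markers of HEK293 cells, 7 passed a level filter, defined as a mean over the 3 arrays at or above the median of all gene means (1.21). The keratin KRT8 (0.85 to 0.98) and the neurofilament NEFM (0.89 to 1.16) were below it. The keratin KRT18 passed only narrowly (mean 1.214, filter 1.213), and its G536S and wild-type readings (1.18 and 1.198) were below the filter. Markers above the filter also differed between arrays: EYA1 was higher with wild type than with the vector by 0.59, and G536S minus wild type was -0.64 for NEFL and 0.44 for INA. None of 6 measured leukocyte markers (0.71 to 0.96) and none of 4 endothelial markers (0.81 to 1.02) passed, and of 4 fibroblast markers only COL1A1 did (2.47 to 2.60).

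The components and the targets differed in where they lay in the deposited range. The filter was passed by 24 of 28 measured components and by 0 of 11 targets. Component means ran from 0.97 to 5.52 with a median of 2.56, and target means from 0.84 to 1.10 with a median of 0.98. All target readings lay between 0.78 and 1.19, and those of the leukocyte and endothelial markers between 0.71 and 1.02. Probe sets differ in affinity, so these levels do not rank genes by transcript amount. The targets were read at the lower end of the deposited range.

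**Figure D1:**
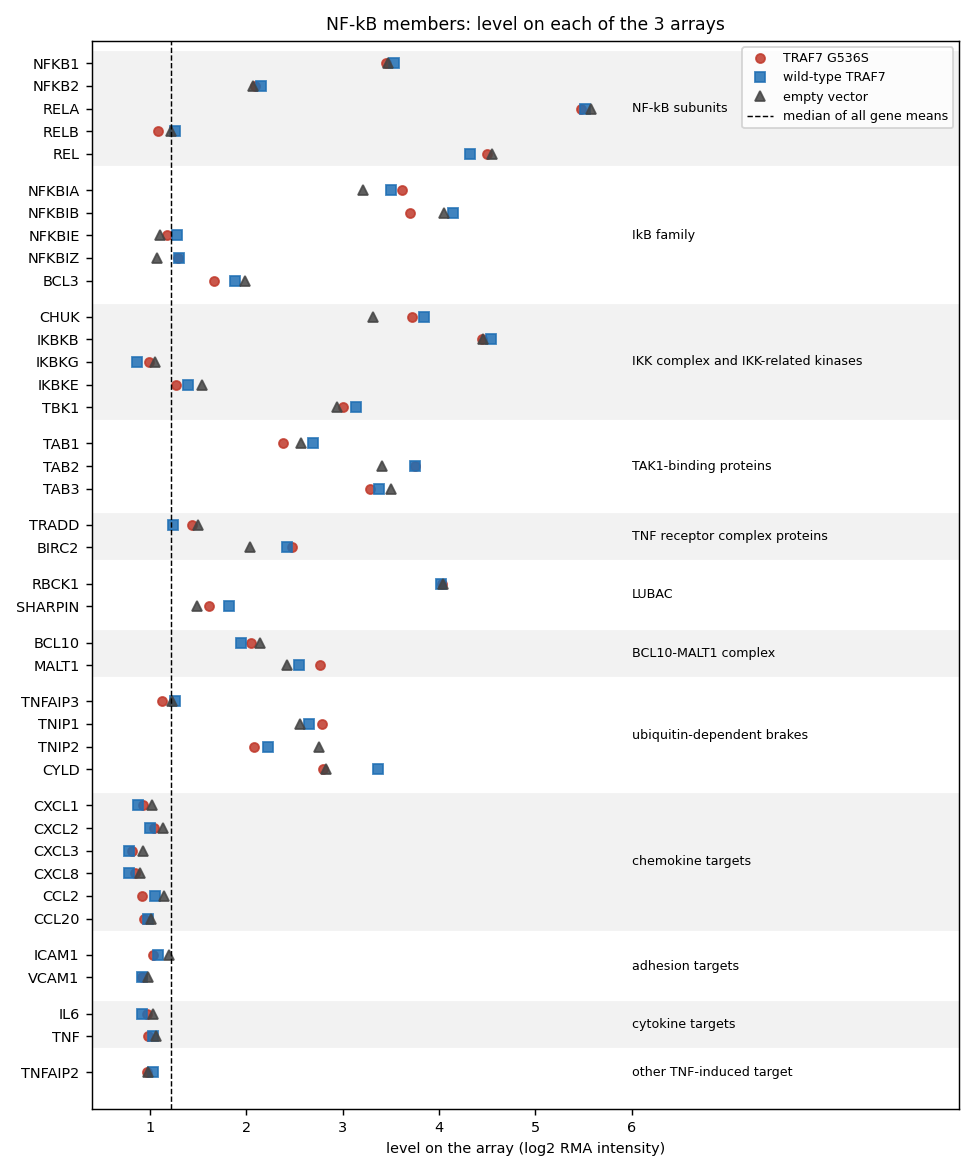
Level of each of the 39 measured members on each array (x axis, log2 RMA intensity), 1 row per gene grouped by role; the circle is TRAF7 G536S, the square wild-type TRAF7 and the triangle the empty vector, and the dashed line is the median of all gene means (1.21). All 11 targets sit left of the line, and 24 of 28 components sit right of it by their mean.

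Promoter sequence is shown because many of the targets and feedback components carry the same binding motif there. RefSeq promoter windows of 300 bases (250 before the start and 50 after it, build GRCh38.p14) were matched by symbol for 36 of the 42 members. The 10-base kappaB consensus, a pattern of sites that NF-kB dimers bind, was searched on both strands, and matches on opposite strands can overlap. It was written GGGRNWYYCC, with R for A or G, N for any base, W for A or T and Y for C or T. The consensus was present in some window of 6 of 10 targets, of 9 of 9 components known as NF-kB-induced, and of 3 of 17 other components. The 3 were CYLD, NFKBIB and TAB2. Members not measured on the arrays were included, among them BIRC3 in the 9. The classes rest on prior knowledge of NF-kB induction, so these shares describe them and do not test them. Over all 27305 genes with a window the share was 7.09%, and over all 35116 windows it was 5.91%. A match in the letters is a description of the window and not a measured binding site. Only this pattern was searched, so the lack of a match does not show the lack of a binding site.

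Below are the 110 bases before the start, 5′ to 3′, with kappaB consensus matches in capitals. The feedback components NFKBIA (chr14:35404750-35404859 on the minus strand), TNFAIP3 (chr6:137867149-137867258 on the plus strand) and NFKB1 (chr4:102501249-102501358 on the plus strand) come first.
NFKBIA: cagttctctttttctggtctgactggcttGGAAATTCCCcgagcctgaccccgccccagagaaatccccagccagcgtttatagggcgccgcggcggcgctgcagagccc
TNFAIP3: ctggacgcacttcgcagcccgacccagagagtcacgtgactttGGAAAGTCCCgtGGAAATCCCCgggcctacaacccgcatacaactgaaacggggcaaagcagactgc
NFKB1: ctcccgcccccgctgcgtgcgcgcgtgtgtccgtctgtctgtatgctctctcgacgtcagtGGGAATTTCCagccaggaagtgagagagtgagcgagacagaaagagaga
The chemokine and cytokine targets with a match are CXCL1 (chr4:73869283-73869392 on the plus strand), CXCL2 (chr4:74099196-74099305 on the minus strand), CXCL3 (chr4:74038690-74038799 on the minus strand), CCL20 (chr2:227813732-227813841 on the plus strand) and IL6 (chr7:22727090-22727199 on the plus strand).
CXCL1: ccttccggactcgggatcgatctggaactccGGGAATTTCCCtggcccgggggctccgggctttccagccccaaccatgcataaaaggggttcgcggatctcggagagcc
CXCL2: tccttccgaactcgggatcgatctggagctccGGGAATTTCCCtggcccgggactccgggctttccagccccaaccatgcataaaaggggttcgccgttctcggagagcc
CXCL3: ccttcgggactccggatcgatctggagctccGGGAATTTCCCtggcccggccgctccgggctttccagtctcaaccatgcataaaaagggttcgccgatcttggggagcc
CCL20: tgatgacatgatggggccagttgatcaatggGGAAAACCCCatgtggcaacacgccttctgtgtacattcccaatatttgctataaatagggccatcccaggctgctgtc
IL6: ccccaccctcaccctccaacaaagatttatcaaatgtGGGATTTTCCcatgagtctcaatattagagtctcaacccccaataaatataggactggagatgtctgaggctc
TNIP2 (chr4:2756337-2756446 on the minus strand), the member with the widest difference between arrays, had no match in its window.
TNIP2: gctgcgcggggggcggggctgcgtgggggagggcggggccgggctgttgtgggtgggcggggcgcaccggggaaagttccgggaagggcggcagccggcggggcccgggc

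The 3 CXCL promoters carried the same run of 11 capital letters, made of a match on each strand 1 base apart, between 79 and 68 bases before the start. CCL20 had its match 79 to 70 bases before the start and NFKBIA 81 to 72 bases before it. TNFAIP3 had a pair of matches, at 67 to 58 and 55 to 46 bases before the start. VCAM1, the sixth target with a match, had one on each strand at 62 to 53 bases before the start, and its sequence is left out to keep the set to chemokines and a cytokine. CXCL8, TNF, ICAM1 and TNFAIP2 had no match to this consensus in their windows, and CCL2 was not matched to a window.

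**Figure D2:**
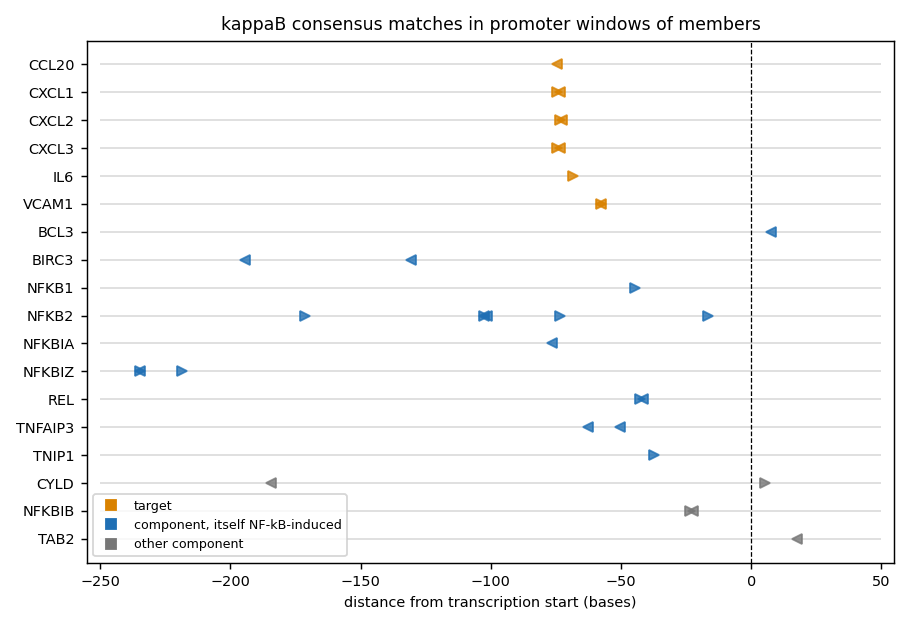
Position of kappaB consensus matches (x axis, bases from the transcription start) in the promoter windows of the 18 members with a match, 1 row per gene, with all windows of a gene overlaid. Triangles point right for the gene's strand and left for the opposite strand. Matches of CXCL1, CXCL2, CXCL3 and CCL20 lie 79 to 68 bases before the start.

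The first comparison, G536S against empty vector, asks which members differ when the mutant is present. No member was at least 1.5-fold higher, where 3.05% of all genes were, and 1 of 39 (2.56%) was at least 1.5-fold lower, where 1.07% of all genes were. That member was TNIP2, which binds the ubiquitin-editing protein A20 and restrains NF-kB signalling. TNIP2 was 2.08 on the G536S array, 2.22 on the wild-type array and 2.75 on the empty vector array. Both construct arrays were thus below the vector array, at -0.67 (1.59-fold lower) for G536S and -0.53 (1.44-fold lower) for wild type. Of all genes, 2.73% were as far apart or farther in the G536S comparison, and TNIP2 has 1 probe set. These shares include the genes below the level filter, few of which were that far apart; among genes above it, 6.07% were 1.5-fold higher and 2.08% lower.

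At a lower bar, 0.32 on the log2 scale, 5 members (12.8%) were higher with G536S against 11.0% of all genes, and 2 (5.13%) were lower against 4.67%. These shares are close to those of all genes, and among genes above the level filter 21.2% were higher and 8.14% lower. The 5 were BIRC2 (0.44), NFKBIA (0.41), CHUK (0.40), MALT1 (0.34) and TAB2 (0.34), and the 2 were TNIP2 and NFKBIB (-0.35). The split depended on the scaling. After quantile normalization 0 members were higher and 6 lower, after cyclic loess 0 and 4, and after median centring 5 and 1. TNIP2 was among the lower members each time, between -0.83 and -0.64. Quantile normalization and cyclic loess moved the median of all genes above the level filter from 0.096 to -0.027 and -0.0062 in this comparison.

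The second comparison, wild type against empty vector, asks this of the normal protein. No member was 1.5-fold apart, against 2.73% of all genes higher and 0.911% lower. At the lower bar of 0.32, 5 members (12.8%) were higher against 9.95% of all genes, and 1 (2.56%) was lower against 4.08%. Among genes above the level filter the shares at that bar were 19.2% and 7.25%. The 5 were CYLD (0.54), CHUK (0.52), BIRC2 (0.38), TAB2 (0.34) and SHARPIN (0.34), and the lower one was TNIP2 (-0.53). Only CHUK and CYLD of these 5 remained past 0.32 under quantile normalization and also under cyclic loess, where 3 and 2 members were lower; median centring left 5 higher and 1 lower. TNIP2 was past 1.5-fold lower under the first pair of scalings, at -0.67 with the quantile method and -0.63 with cyclic loess.

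The third comparison sets G536S against wild type and leaves the vector array out. The arrays compared here also differ in TRAF7 level, as given above. No member was 1.5-fold apart, where 1.11% of all genes were higher and 0.929% lower. At the lower bar no member was higher, against 5.46% of all genes, and 2 members (5.13%), CYLD and NFKBIB, were lower, against 4.71%. Among genes above the level filter 10.2% were higher and 8.67% lower. TAB1 joined them under both quantile normalization and cyclic loess, for 3 lower and 0 higher, and median centring left 2 and 0. The 3 comparisons are made from 3 arrays and share them in pairs, so they are not independent of each other.

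**Figure D3:**
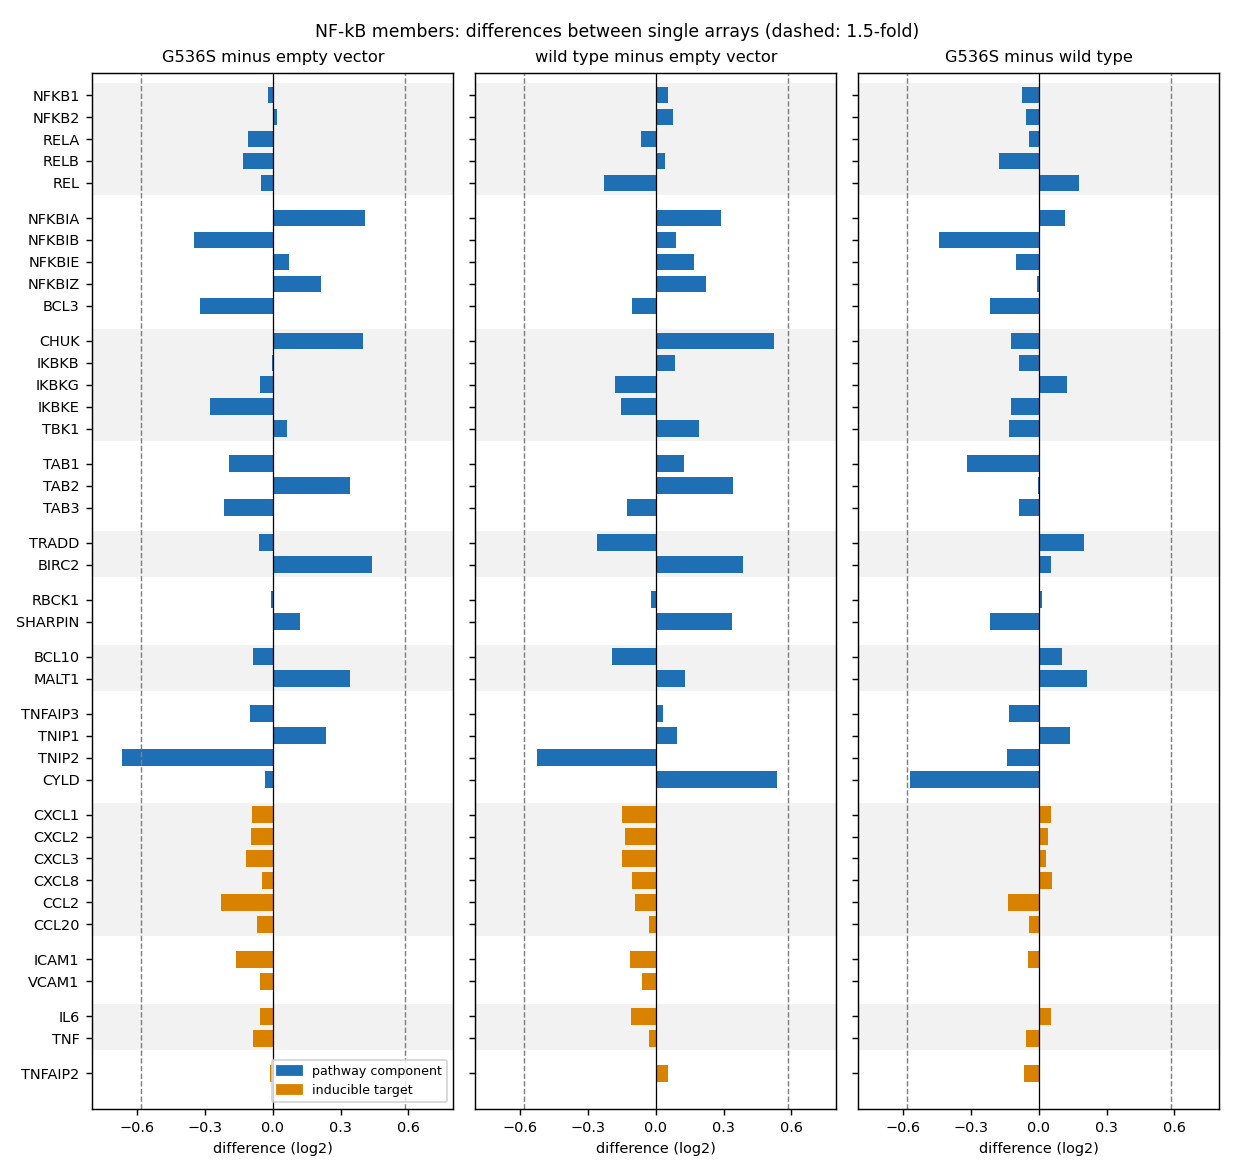
Log2 difference of each measured member in the 3 comparisons (x axis), with G536S minus empty vector on the left, wild type minus empty vector in the middle and G536S minus wild type on the right; blue bars are components, orange bars are targets and dashed lines mark 1.5-fold. Only TNIP2 in the left panel (-0.67) passes a line.

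The brakes that act on ubiquitin chains held the widest differences. CYLD, a deubiquitinase that removes the chains NF-kB signalling needs, was 2.79 with G536S, 3.36 with wild type and 2.83 with the vector. The wild-type array stood above the other 2, which lay within 0.034 of each other, and G536S minus wild type was -0.57, a distance reached by 2.28% of all genes. That share includes the genes below the level filter, few of which were that far apart. TNFAIP3, which encodes A20, was 1.12 with G536S, 1.254 with wild type and 1.22 with the vector, below the level filter. TNIP1, a partner of A20 like TNIP2, was 2.79 with G536S, 2.65 with wild type and 2.55 with the vector. In the deposited values it lay on the other side of the vector array from TNIP2, with differences of 0.23 and 0.094. Under quantile normalization and cyclic loess the G536S difference was 0.082 and 0.11. The wild-type difference became -0.058 and -0.020, the same side as TNIP2.

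Among the IkB proteins, NFKBIA (IkB-alpha, the fast feedback inhibitor) was 3.62 with G536S, 3.50 with wild type and 3.21 with the vector. Both construct arrays were above the vector array by 0.41 and 0.29, a distance reached by 10.1% and 17.0% of all genes. Over 6 settings of scaling, floor and probe set these differences ran from 0.25 to 0.44 and from 0.13 to 0.32. NFKBIB (IkB-beta) was 3.70 with G536S, 4.14 with wild type and 4.05 with the vector, so the G536S array was the low one, at -0.44 against wild type. BCL3, a nuclear IkB protein that works with p50 and p52, was 1.67 with G536S, 1.88 with wild type and 1.99 with the vector, lowest with G536S, at -0.32 against the vector, just short of the lower bar. NFKBIE (1.18 with G536S, 1.28 with wild type and 1.11 with the vector) and NFKBIZ (1.29 with G536S, 1.30 with wild type and 1.08 with the vector) were near the level filter.

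Of the subunits that bind DNA, RELA, NFKB1 and NFKB2 varied little. RELA (p65, the main activating subunit) was 5.47 with G536S, 5.51 with wild type and 5.58 with the vector. NFKB1 (p105, processed to p50) was 3.45 with G536S, 3.53 with wild type and 3.47 with the vector, and NFKB2 (p100, processed to p52) was 2.09 with G536S, 2.15 with wild type and 2.07 with the vector. These 3 genes spanned 0.11 (RELA), 0.077 (NFKB1) and 0.077 (NFKB2) over the 3 arrays, narrower than the median span of components (0.23). REL (c-Rel) was 4.50 with G536S, 4.32 with wild type and 4.55 with the vector, with the wild-type array low, at -0.23 against the vector. RELB, the partner of p52 in the non-canonical branch, was 1.09 with G536S, 1.26 with wild type and 1.22 with the vector, and its mean was below the filter.

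Of the kinases, CHUK (IKK-alpha) was 3.72 with G536S, 3.84 with wild type and 3.32 with the vector. Both construct arrays were above the vector array, by 0.40 and 0.52, and 4.94% of all genes were as far apart in the wild-type comparison. That share, too, includes the genes below the level filter, few of which were that far apart. IKBKB (IKK-beta, the kinase of the canonical branch) was 4.45 with G536S, 4.54 with wild type and 4.45 with the vector, and differed by 0.084 at most from the vector. TBK1, a related kinase of antiviral signalling, was 3.001 with G536S, 3.13 with wild type and 2.94 with the vector. IKBKE, its close relative, was 1.27 with G536S, 1.39 with wild type and 1.54 with the vector, lowest with G536S, at -0.28 against the vector. IKBKG (NEMO, the regulatory subunit of IKK) was 0.99 with G536S, 0.86 with wild type and 1.05 with the vector, below the filter; it has a near-identical pseudogene copy, so its reading is uncertain.

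The adaptors between receptor and kinase gave no common direction. TAB2, which binds ubiquitin chains for TAK1, was 3.74 with G536S, 3.75 with wild type and 3.40 with the vector, so the constructs were level with each other and 0.34 above the vector. TAB1, the TAK1 activator, was 2.37 with G536S, 2.69 with wild type and 2.57 with the vector, lowest with G536S, at -0.32 against wild type, also just short of the lower bar. TAB3, a relative of TAB2, was 3.29 with G536S, 3.38 with wild type and 3.51 with the vector on the probe set used. Its other probe set was 2.30 with G536S, 1.79 with wild type and 2.08 with the vector, so G536S minus wild type was -0.088 on one and 0.51 on the other. The probe sets of this 1 gene thus gave opposite directions.

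BIRC2 (cIAP1, a ubiquitin ligase of the TNF receptor complex) was 2.47 with G536S, 2.42 with wild type and 2.03 with the vector, higher with both constructs by 0.44 and 0.38. TRADD, the adaptor of TNF receptor 1, was 1.43 with G536S, 1.24 with wild type and 1.495 with the vector, with wild type the low array. In LUBAC, which makes linear ubiquitin chains, RBCK1 (HOIL-1) spanned only 0.023 (4.03 with G536S, 4.02 with wild type and 4.04 with the vector). Its partner SHARPIN was 1.61 with G536S, 1.82 with wild type and 1.49 with the vector, highest with wild type by 0.34 against the vector. In the BCL10-MALT1 complex of antigen receptor signalling, the protease MALT1 was 2.76 with G536S, 2.55 with wild type and 2.42 with the vector, and the adaptor BCL10 was 2.05 with G536S, 1.95 with wild type and 2.14 with the vector. MALT1 was highest and BCL10 was between the other arrays with G536S.

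The inducible targets were then read as the output of the pathway. CXCL8, a neutrophil chemokine, was 0.84 with G536S, 0.79 with wild type and 0.89 with the vector. The neutrophil chemokines CXCL1 (0.93 with G536S, 0.88 with wild type and 1.02 with the vector), CXCL2 (1.04 with G536S, 1.00 with wild type and 1.14 with the vector) and CXCL3 (0.81 with G536S, 0.78 with wild type and 0.93 with the vector) had the same order of arrays, and as close paralogs they can share probe sequence. The monocyte chemokine CCL2 had the widest span, 0.92 with G536S, 1.05 with wild type and 1.14 with the vector, and CCL20, which attracts CCR6-bearing lymphocytes, was 0.94 with G536S, 0.98 with wild type and 1.01 with the vector. In these 6 genes the vector array was the highest each time, by at most 0.23.

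The adhesion receptors ICAM1 (1.03 with G536S, 1.08 with wild type and 1.19 with the vector) and VCAM1 (0.92 with G536S, 0.91 with wild type and 0.98 with the vector) and the cytokine IL6 (0.97 with G536S, 0.91 with wild type and 1.03 with the vector) also had their highest reading with the empty vector. TNF, the founding cytokine of the pathway, was 0.97 with G536S, 1.03 with wild type and 1.06 with the vector, and TNFAIP2, named for its induction by TNF, was 0.97 with G536S, 1.03 with wild type and 0.98 with the vector. TNF had 8 probe sets, of which 7 held the same values and 1 was lower on every array (0.85 with G536S, 0.91 with wild type and 0.96 with the vector). TNFAIP2 was the only target with wild type above the vector.

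In all, 11 of 11 targets were below the vector with G536S and 10 of 11 with wild type, with medians of -0.089 and -0.11. Of all genes below the level filter, 66.3% and 62.9% were also below the vector, with medians of -0.041 and -0.031. After cyclic loess, a centring that follows level, the counts were 10 and 9 of 11 with medians of -0.054 and -0.076, against 51.9% and 51.2% of the genes below the filter. The part of this shift at low levels in the targets' differences was not tested. None of the 11 was past 0.32 in any comparison, and the widest difference was CCL2 with G536S (-0.23).

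**Figure D4:**
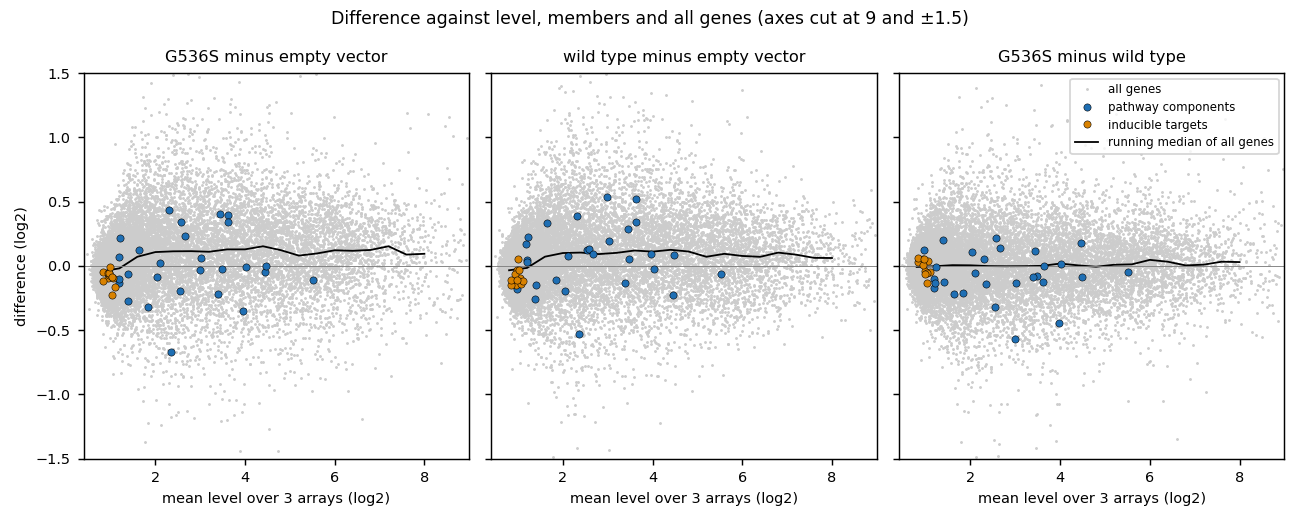
Difference (y axis, log2) against mean level over the 3 arrays (x axis, log2) for all 22395 genes (grey), components (blue) and targets (orange), in the 3 comparisons; the line is the running median of all genes, and the axes leave out the most distant genes. The running median lies above 0 at higher levels in both comparisons with the vector and near 0 in G536S minus wild type, and the targets sit at the low end of the range.

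Components were set against targets as groups. The median difference with G536S against the vector was -0.027 for components and -0.089 for targets, against -0.0047 for all genes. With wild type it was 0.081 for components and -0.11 for targets, against -0.0007 for all genes. Components minus targets was therefore 0.062 with G536S and 0.19 with wild type. The same contrast between all genes above and below the level filter was 0.14 and 0.11. After cyclic loess components minus targets was -0.060 with G536S and 0.055 with wild type, so its sign with G536S turned.

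Between the constructs, the median of G536S minus wild type was -0.082 for components and 0.0066 for targets, with -0.0033 for all genes. Of 28 components 19 were lower with G536S than with wild type, and 9 were higher. Over all genes above the filter 51.4% were higher with G536S. Components minus targets was -0.089, and it ran from -0.11 to -0.046 over the alternatives of scaling, floor, probe set and split. The components that are themselves NF-kB-induced (10 measured) had a median of -0.067 and the other 18 a median of -0.088, both below 0.

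A list of 28 further upstream genes held 23 measured genes, 14 of them above the filter, and none was 1.5-fold apart in any comparison. Of all genes, 3.05% were higher and 1.07% lower at that bar with G536S, 2.73% and 0.911% with wild type, and 1.11% and 0.929% between the constructs. TRAF6, a ligase of interleukin-1 and Toll-like receptor signalling, was 4.65 with G536S, 4.46 with wild type and 4.50 with the vector. MAP3K7, which encodes TAK1, was 6.12 with G536S, 5.83 with wild type and 5.86 with the vector, and MAP3K3 (MEKK3) was 3.81 with G536S, 3.55 with wild type and 3.74 with the vector. In these 3 genes, chosen by name and not as examples of the list, the G536S array was the highest. Over the whole list 13 of 23 genes were lower with G536S than with the vector (median -0.015), and 13 of 23 were lower with G536S than with wild type (median -0.027). TRAF2 was not analysed here.

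A list of 33 further NF-kB-induced genes held 31 measured genes, and 10 passed the filter. With G536S against the vector 1 of 31 (3.23%) was 1.5-fold lower, where 1.07% of all genes were, and none was higher. With wild type against the vector 1 (3.23%) was higher, where 2.73% of all genes were, and none was lower. With G536S against wild type 2 (6.45%) were lower, where 0.929% of all genes were, and none was higher. Among genes above the level filter the shares for these 3 counts were 2.08%, 5.42% and 1.81%. The list was chosen with earlier results of these data known, so its shares cannot show an excess over other genes. NFKBID, an atypical IkB protein, was 1.71 with G536S, 2.43 with wild type and 2.35 with the vector, and was the gene lower with G536S in both of its comparisons (-0.64 and -0.72). GADD45B, a stress-induced regulator of MAP kinase signalling, was 2.27 with G536S, 2.96 with wild type and 2.39 with the vector (-0.69 against wild type). SDC4, a cell-surface proteoglycan, was 3.50 with G536S, 4.05 with wild type and 3.47 with the vector, higher with wild type than with the vector by 0.59. In GADD45B and SDC4 the wild-type array stood apart, as it did in CYLD. All 3 genes can be induced by other pathways too, and the list's medians were -0.021, 0.013 and -0.046 in the 3 comparisons.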

How the data were processed

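Total RNA of HEK293T cells was measured on 1 Affymetrix array for each of 3 groups, assigned from the sample titles. The authors deposited 1 intensity on a log scale for each probe set, and RMA is named in the submitters' processing notes. The sources used here give neither its software version nor a genome build. The values the authors deposited were read as log2 intensities normalized by RMA. No label states the base, and 2 was inferred because the maximum of 12.57 is too high for a natural log of a scanner reading. The table holds 53617 probe sets, of which the platform annotation gives 23871 a single gene, 1842 several and the other 27904 none. Symbols were updated by Entrez ID through a RefSeq table of GRCh38.p14. The number of arrays limits the precision, and there is no residual spread to test with.

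Each difference is one array's log2 value less that of another. Genes past 1.5-fold, and past 0.32 on the log2 scale, were counted among members and among all 22395 genes, with no level filter. The members, their roles and the lists were chosen with earlier results of these data known. The genes named are all measured members, TRAF7, and, of the 2 further NF-kB lists, those 1.5-fold apart plus TRAF2, TRAF6, MAP3K3 and MAP3K7. KRT8, KRT18, NEFM, EYA1, NEFL, INA and COL1A1, from the cell marker lists, were named outside that rule after their values were seen. The alternatives tried were a mean over the probe sets of a gene, quantile normalization, median centring, cyclic loess, a floor at the 25th percentile (0.86), members passing the level filter alone, feedback components counted as targets, and a lower bar of 0.32 (log2) or a 2-fold bar. limma 3.58.1 in R 4.3.3 did quantile normalization and cyclic loess. The rest used Python 3.11.15, numpy 2.4.6 and pandas 2.3.3, and matplotlib 3.10.9 drew the figures. Counting was first tested on simulated data, where a pass was required only for a shift wider than the bars used here. Promoter windows came from RefSeq (GRCh38.p14).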

Additional observations from a re-analysis of the deposited data

Results flagged for a closer look

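CYLD and NFKBIB drew attention because the constructs lay on opposite sides of the empty vector array while differing from each other by more than 0.32 (log2). CYLD, the deubiquitinase, had G536S minus wild type of -0.57, with G536S at -0.034 and wild type at 0.54 against the vector. The G536S array thus lay close to the vector array for CYLD, since 83.3% of all genes were as far apart or farther. NFKBIB, which encodes IkB-beta, had G536S minus wild type of -0.44, with G536S at -0.35 and wild type at 0.091 against the vector. Under quantile normalization and cyclic loess wild-type NFKBIB lay below the vector, at -0.027 and -0.028, while its distance from G536S ran from -0.47 to -0.44 over the 6 settings run. Each rests on 1 probe set and 1 array per group, and the difference was not tested.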

How the results depend on the processing

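Members at least 1.5-fold apart numbered 1 with G536S against the vector, 0 with wild type against the vector and 0 between constructs; past 0.32 (log2) they numbered 7, 6 and 2, and at 2-fold there were 0 with G536S against the vector. Quantile normalization and cyclic loess each gave 1 member, TNIP2, with wild type. The median of components moved to -0.14 with G536S under quantile normalization, and with wild type to -0.031 under quantile normalization and -0.021 under cyclic loess. Components minus targets became -0.081 and -0.060 with G536S, and 0.051 and 0.055 with wild type, under quantile normalization and cyclic loess. The other 68 summary values stayed within 0.1 for a median or 1.5 times for a count. Of the single-member values 656 stayed within the spread between constructs (0.226). Many of these had little or no room to move. The level-filter setting (72 values) repeats the deposited values, and the mean over probe sets alters only members with several. Median centring shifts all members alike, and the floor reaches few readings. Quantile normalization and cyclic loess could move single members, and the 117 values of each stayed within that spread. TAB3, G536S minus wild type, moved to 0.21 with the mean of its probe sets. The spread of 0.226 was wider than the median span of members over the arrays (0.19), so a value can turn sign within it. Signs did turn for several members, among them NFKB1, NFKB2, IKBKB and TNIP1 with wild type against the vector. No target passed the level filter, so that setting gave targets no value. No paired analysis was possible because each group has 1 array. Readings at the low end of the deposited range limit what can be seen in all 11 targets, so a narrow difference there does not show an absence of change.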

Other observations

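The probe set that the annotation gives to RNF31, the catalytic subunit of LUBAC, together with IRF9, an interferon response factor, read 1.61 (G536S), 1.9996 (wild type) and 1.68 (empty vector). The wild-type array was the high one, as for SHARPIN and CYLD, but the reading cannot be assigned to either gene. For other members, among them REL, TRADD, BCL10 and IKBKG, the wild-type array was the low one. A second TAB1 probe set, shared with an uncharacterised locus, read 1.10 with G536S, 1.16 with wild type and 1.00 with the vector. On it G536S minus the vector was 0.11, while on the probe set of TAB1 alone it was -0.20.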
